A study of Danio rerio with 12 samples.

Results

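The genotype effect that trunk muscle and the eye-moving extraocular muscle (EOM) share was measured across all 12 of the 12 zebrafish libraries of the series. Messenger RNA had been sequenced from both muscles of 5-month-old fish, with 3 libraries in each of 4 groups. All fish were of the AB strain. The WT fish carried neither desmin mutation, and the mutant fish, desma-/-;desmb-/-, carried mutations in both copies of both zebrafish desmin genes, in every cell of the animal. For each gene, the mutant-against-WT difference in EOM and the one in trunk were averaged with equal weight, which sets 6 mutant against 6 WT libraries with the tissue held constant. This average is called the pooled log2 fold change.

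Desmin is the main intermediate filament protein of mature muscle. Its filaments link neighbouring myofibrils at the Z-discs and tie them to the sarcolemma at the costameres, to the nuclei and to the mitochondria. Loss or mutation of desmin in people and mice causes a myopathy of skeletal and cardiac muscle, and extraocular muscle is known to be spared in many muscular dystrophies. The title of the study names fhl2b, which encodes a muscle scaffold protein of the LIM-domain family FHL.

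The fish were compared as lines: the labels state that the WT fish came from the line used to make the double mutant, but not that the 2 genotypes were littermates, so the desmin mutations and any other inherited difference between the 2 stocks cannot be told apart here. Whole dissected tissue was used although the labels give myofibers as the cell type, and whether a library held 1 fish or several is not given in the sources used here, so the p-values measure the spread between these libraries. In bulk samples, fewer cells of a type and less RNA per cell cannot be told apart. Libraries held 64.5 to 91.1 M gene-strand reads. Of 15 skeletal muscle defining genes all were tested and none passed the threshold in edgeR, DESeq2 or limma-voom (2 had an unadjusted p under 0.05 in edgeR, against 12% of all genes tested). Their summed level, both genotypes together, was 38330 to 94520 CPM in EOM and 59150 to 170400 CPM in trunk. The sums overlapped between genotypes in EOM, while in trunk all mutant libraries lay above the WT ones. The most abundant member, ckmb, had 34330, 25430 and 43860 CPM in WT trunk and 105000, 97370 and 47490 CPM in mutant trunk. Other members had negative log2 fold changes in trunk, such as neb (-0.35) and atp2a1 (-0.45). Posterior Hox genes, which mark the trunk, summed to at most 0.329 CPM in EOM and to at least 97.5 CPM in trunk. CPM is the read count scaled to a common depth after TMM, which adjusts each library for its composition. The TMM factors of 4 libraries stood apart: they were 1.68 in WT EOM library 3, 1.80 in mutant EOM library 3, 0.639 in mutant trunk library 1 and 0.555 in mutant trunk library 2, against 0.888 to 1.27 in the other 8.

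Of 20041 genes with enough reads, 244 passed an adjusted p of 0.05 in the pooled contrast (edgeR's quasi-likelihood test with Benjamini-Hochberg adjustment over all genes tested). That is 1.22% of the genes tested. Of these, 133 (0.664% of the genes tested) were higher and the others (0.554%) were lower in the mutant. The fold change was at least 2-fold in 241 of them, with a median absolute log2 fold change of 1.87 among the genes that rose and of 3.11 among those that fell. Most were not abundant: 97 of the 244 had a mean over all libraries under 1 CPM, and 12 had a mean of at least 50 CPM. In 193 of the 244 genes, mutant and WT libraries did not overlap in either tissue, where 3.15% of all genes tested (632 genes) met that criterion in 1 direction. The 244 genes were chosen on these same libraries, so the count of 193 is a description.

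The number of genes past the threshold moved with the libraries used. Without 1 library at a time it was lowest without WT EOM library 2, at 51 higher and 53 lower genes (0.501% of the genes tested), and highest at 422 without mutant EOM library 3. It was also more than 1.5 times away from 244 without WT EOM library 3 (132), mutant EOM library 1 (114), WT trunk library 1 (131), WT trunk library 2 (49 higher and 57 lower), WT trunk library 3 (120), mutant trunk library 1 (61 higher and 51 lower) and WT EOM library 1 (157). The deviations of same-numbered WT and mutant EOM libraries correlated at 0.246 to 0.552, against -0.449 to 0.173 for differently numbered ones. With that number as a block in EOM, 382 genes passed, of which 231 were among the 244. With scaling by library totals alone 33 genes were higher and 68 lower, so that 32.7% of those past the threshold were higher in the mutant, against 54.5% here; that scaling moved the log2 fold change of a gene by a median of -0.272. Without the libraries numbered 3 in EOM, 213 genes passed and 68.1% were higher, and without mutant trunk libraries 1 and 2, 56 were higher and 46 lower. Across the 12 fits without 1 library, 76 genes passed in every one, 38 higher and 38 lower, and those fits, together with every other fit tried, left the sign of all 244 genes as it was.

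**Figure D1:**
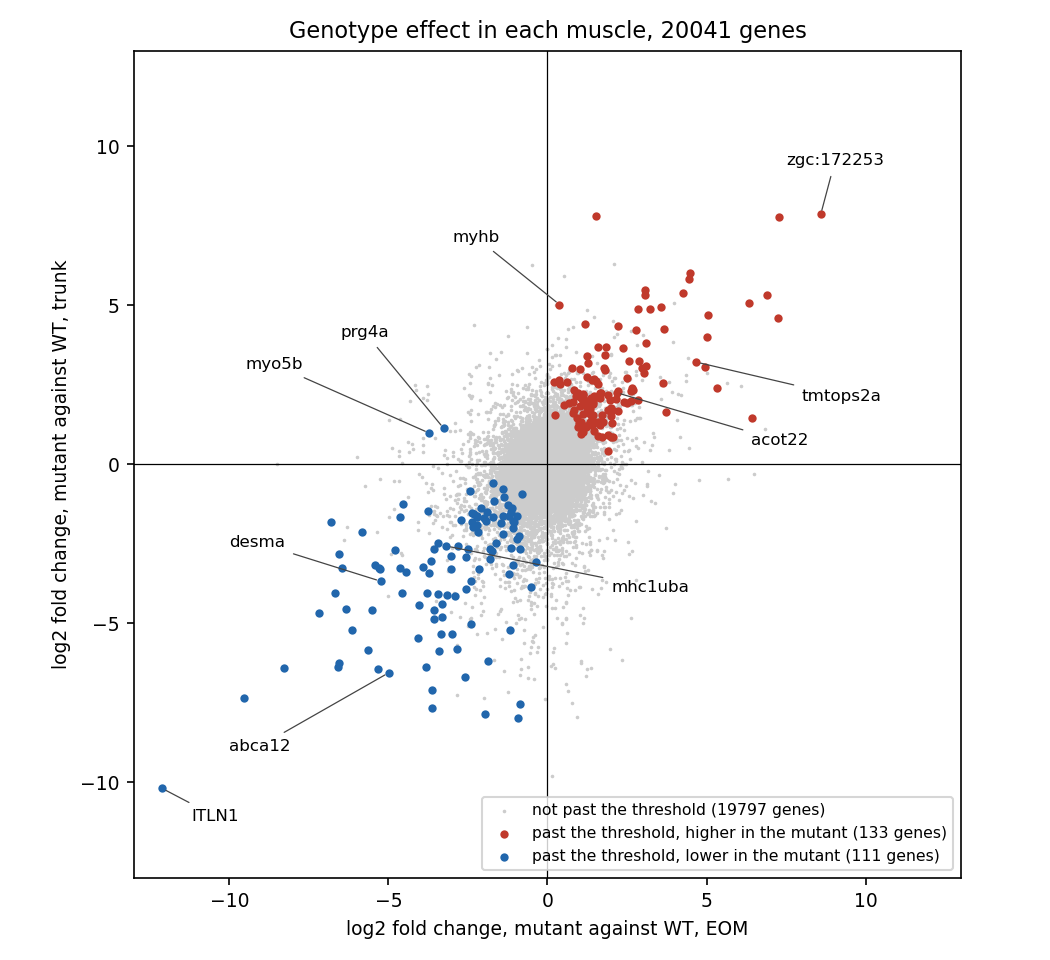
Log2 fold change of mutant against WT in EOM (horizontal axis) and in trunk (vertical axis) for each of the 20041 genes tested; coloured points are the 244 genes past the adjusted threshold in the pooled contrast. Nearly all coloured points lie at the lower left or upper right, and prg4a and myo5b lie in the upper left.

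The shared change was of like sign in both muscles by the construction of the average, which favours genes that move the same way, so the count of 242 genes with the same sign in EOM and trunk is a description. The tissue effects differed past the adjusted threshold in 2 of the 244 genes, prg4a and myo5b, which were the only 2 of all 20041 genes (0.00998%) to do so in the interaction term of the same model. An unadjusted interaction p under 0.05 was found in 41 of the 244 genes, while 4.43% of all genes (887) had one. In 207 of the 244 genes the unadjusted p was under 0.05 in each tissue on its own. This count is a description too, because the 244 genes were chosen on the average of the effects in those tissues.

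The targeted gene desma (ENSDARG00000058656.6, the desmin gene with reads in these muscles) was the gene with the smallest p. Its normalised read count in WT EOM libraries 1, 2 and 3 was 1336, 748.1 and 509.2 CPM, and in mutant EOM 26.2, 23.8 and 18.2 CPM. In trunk it was 644.4, 575.2 and 518.7 CPM in WT and 62.7, 36.8 and 36.7 CPM in the mutant. The groups were far apart in both muscles, and transcript was still read in every mutant library. The pooled log2 fold change was -4.46 (SE 0.32, adjusted p 9.46e-06, edgeR). The other desmin gene, desmb, had 0 to 12 reads in each library, WT included, and was not tested.

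The FHL family is described as a whole because the study names it. None of its 7 tested genes passed the threshold in edgeR, where 3 had an unadjusted p under 0.05, and DESeq2 called 1, fhl2b (adjusted p 0.0179). Of all genes tested, 12% had an unadjusted p under 0.05 in edgeR, and DESeq2 called 3.61%. A positive value was found in 5 of the 7 FHL genes, with a median pooled log2 fold change of 0.54 where the median of all genes was -0.03. The family median was 0.146 with library totals alone, 0.19 without mutant trunk libraries 1 and 2, and 0.319 to 0.713 without 1 library. The level of fhl2b was 104.7, 95.5 and 127 CPM in the WT EOM libraries and 220, 219 and 245 CPM in the mutant ones, without overlap. In trunk it was 4.58, 6.32 and 5.03 CPM in WT and 8.34, 7.65 and 5.16 CPM in the mutant, where the groups overlapped. Its pooled log2 fold change was 0.74 (SE 0.21, adjusted p 0.121, edgeR), and 0.0564 was the adjusted p with the EOM number as a block. For fhl2a the value was 0.60 (adjusted p 0.396). The sign of fhl1b, fhl3a and fhl3b, whose values lay between -0.27 and 0.13, turned in 1 alternative fit each.

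Among the genes that rose, the 15 largest with a name, 1 CPM or more on average and no overlap in either muscle rose by pooled log2 fold changes of 2.095 to 4.28, and 6 of them are known by a clone name only. The gene tmtops2a encodes a teleost multiple tissue opsin, a light-sensing receptor found outside the eye as well. Its level was 0.279, 0.235 and 0.28 CPM in WT EOM and 10.8, 6.98 and 2.73 CPM in mutant EOM. In trunk it was 0.29, 0.149 and 0.368 CPM in WT and 2.80, 3.23 and 1.53 CPM in the mutant. The lowest mutant library was above the highest WT library in each muscle, and the pooled log2 fold change was 3.95 (SE 0.40, adjusted p 0.000121, edgeR). For txnb, which encodes a thioredoxin, a small protein that reduces disulfides, WT EOM libraries held 3.17, 2.01 and 0.84 CPM and mutant EOM libraries 13.2, 9.52 and 5.22 CPM. In trunk txnb stood at 2.12, 0.609 and 0.541 CPM in WT and at 18.3, 22.02 and 26.8 CPM in the mutant. Its trunk values were the more widely separated, and the pooled log2 fold change was 3.29 (SE 0.42, adjusted p 0.000919, edgeR).

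The transcription factor gene camta2, a calmodulin-binding activator, had 0.101, 0.27 and 0.253 CPM in WT EOM and 3.195, 2.57 and 2.08 CPM in mutant EOM. In trunk it had 0.63, 0.799 and 0.622 CPM in WT and 5.65, 3.40 and 2.94 CPM in the mutant, a pooled log2 fold change of 3.09 (SE 0.33, adjusted p 0.000243, edgeR). All 6 mutant libraries lay above all 6 WT libraries, whatever the muscle. The same held for crym, which encodes mu-crystallin, a cytosolic binder of thyroid hormone. Its WT libraries ranged from 0.487 to 1.53 CPM and its mutant libraries from 4.21 to 9.01 CPM over both muscles, and the pooled log2 fold change was 2.90 (SE 0.32, adjusted p 0.000305, edgeR).

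The most abundant of the 15 was acot22, a member of the acyl-CoA thioesterase family, whose enzymes split fatty acyl-CoA into fatty acid and coenzyme A. Its level differed strongly between the muscles, at 0.515 to 1.33 CPM in WT EOM and 1.61 to 5.23 CPM in mutant EOM, against 52.1, 19.4 and 28.4 CPM in WT trunk and 235, 154 and 85.7 CPM in mutant trunk. The log2 fold change was nevertheless 2.18 in EOM and 2.25 in trunk, and 2.21 pooled (SE 0.38, adjusted p 0.00918, edgeR). Mutant and WT did not overlap in either muscle. The interferon-inducible family gene ifi27.2 had 9.72, 5.78 and 4.92 CPM in WT EOM and 35.8, 38.9 and 15.3 CPM in mutant EOM. In trunk ifi27.2 had 2.08, 2.86 and 2.73 CPM in WT and 14.5, 11.3 and 5.94 CPM in the mutant, and its pooled log2 fold change was 2.095 (SE 0.30, adjusted p 0.00267, edgeR). In each muscle the mutant library numbered 3 was the lowest of the 3 mutant libraries for ifi27.2 and for acot22.

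Of the other 9, chia.6, an acidic chitinase gene, rose by a log2 fold change of 2.77, ms4a17a.1, of a family of membrane proteins that span the membrane 4 times, by 3.10, and tcimb, a regulator gene of transcription and immune response, by 2.61. The remaining 6 were si:ch211-66i8.3 (4.28), si:dkey-251i10.2 (4.05), si:dkey-7i4.24 (3.51), zgc:171242 (3.02), si:dkey-33i11.1 (2.62) and si:dkey-6n3.3 (2.32), all in pooled log2 fold changes with adjusted p of 0.000305 to 0.013 (edgeR). All 15 passed in each of the 12 fits without 1 library apart from si:dkey-6n3.3, whose adjusted p was 0.0538 without mutant EOM library 1.

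**Figure D2:**
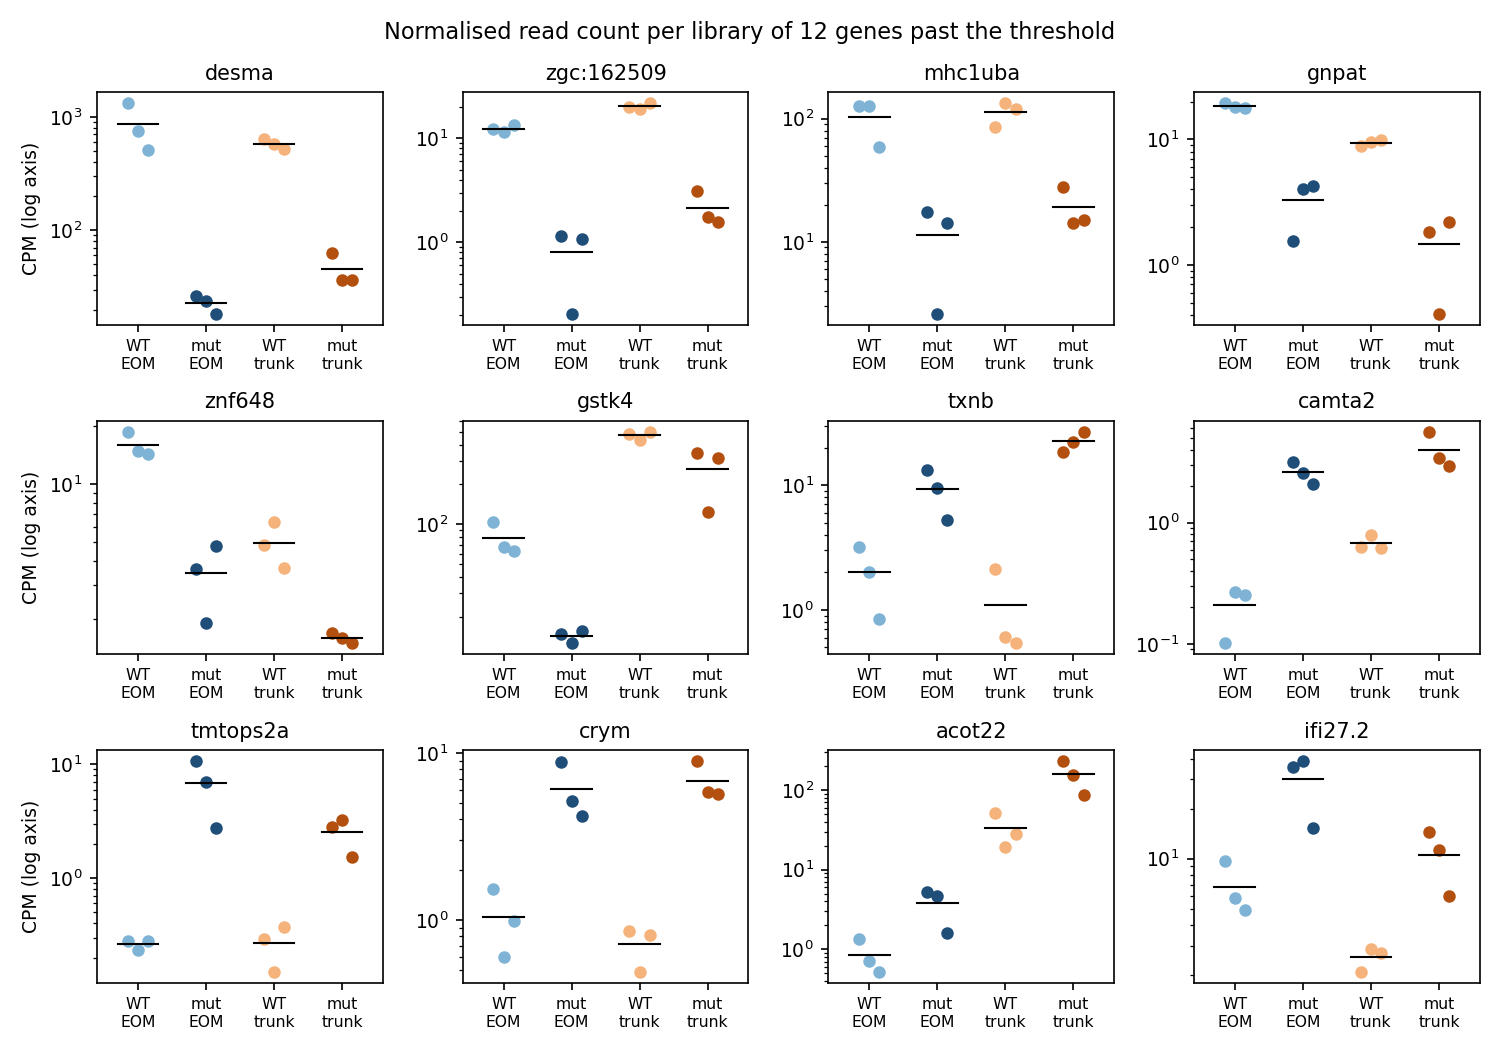
Normalised read count (CPM, log axis) of 12 genes past the threshold in each library; points are libraries in the order of their replicate number, and the short line is the mean of the 3 libraries of a group. The first 6 panels show genes that fell and the last 6 genes that rose, with no overlap of mutant and WT in either muscle.

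Among the genes that fell, the largest included transcripts with next to no reads in the mutant. ITLN1 (ENSDARG00000095082.5, listed by the symbol of the human intelectin gene; intelectins are lectins that bind microbial sugars) had 534 to 811 reads in each WT EOM library and 116 to 157 reads in each WT trunk library. It had 0 reads in all 6 mutant libraries. Taken against 3 reads in each mutant library, its level was at least 177.3-fold lower in mutant EOM and at least 32.7-fold lower in mutant trunk. In all, 20 of the genes that fell had at most 3 reads in every mutant library of both muscles, and 8 of the 133 that rose had at most 3 reads in every WT library. Such genes pass the read filter only through the genotype in which they are read. The share of all genes tested that met this criterion is not given here, so these counts are a description.

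Next to ITLN1, the best read of these 28 genes were btr07, a gene of the bloodthirsty-related TRIM family, cyp2x7, a cytochrome P450, and zgc:198329. For btr07 there were 56 to 200 reads in the WT EOM libraries, 55 to 141 in WT trunk, 0 in the 3 mutant EOM libraries and at most 1 in mutant trunk. For cyp2x7 there were 79 to 110 reads in WT EOM and 42 to 49 in WT trunk, against at most 2 in any mutant library. On the other side, zgc:198329 had at most 1 read in each WT library, 10 to 193 reads in mutant EOM and 40 to 98 in mutant trunk. The gene zgc:172253 had 0 reads in all 6 WT libraries, 30 or more reads in each mutant EOM library and 16 to 27 in each mutant trunk library, at least 19.1-fold higher in EOM and at least 9.31-fold higher in trunk against 3 reads in each WT library. These transcripts were thus seen in 1 genotype almost alone.

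The other 17 genes with at most 3 reads in every mutant library had at most 74 reads in any WT EOM library and 60 in any WT trunk library. Among them were lingo2b and lrtm2b, which encode leucine-rich repeat membrane proteins, p2rx2, an ATP-gated channel gene, penka, a proenkephalin gene, fam221a and cebp1. Some were hardly read in WT either, such as penka, with 4 to 18 reads in the WT EOM libraries and 3 to 19 in the WT trunk libraries. On the side of the 8 that rose, slc22a13a, a gene of the organic ion transporter family, had 32 to 56 reads in mutant trunk and 7 to 22 in mutant EOM, and colec10, a collectin gene, had 17 to 27 reads in mutant trunk and 1 to 27 in mutant EOM.

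The gene abca12, which encodes a lipid transporter of the ABC family, had 0.988, 1.122 and 2.27 CPM in WT EOM and 2.33, 2.76 and 2.83 CPM in WT trunk. In the mutant it was at 0 to 0.0648 CPM in EOM and 0 to 0.0518 CPM in trunk. The pooled log2 fold change was -5.78 (SE 0.58, adjusted p 0.000121, edgeR). A better read gene was zgc:162509, at 12.2, 11.5 and 13.4 CPM in WT EOM and 1.15, 0.204 and 1.07 CPM in mutant EOM. In trunk it was at 19.9, 19.1 and 22.03 CPM in WT and 3.15, 1.76 and 1.58 CPM in the mutant, a pooled log2 fold change of -3.58 (SE 0.36, adjusted p 0.000121, edgeR). Its WT libraries differed little from each other, and every mutant library lay far below them.

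The peroxisomal gene gnpat encodes the acyltransferase that starts the synthesis of ether lipids. It had 19.7, 18.1 and 17.9 CPM in WT EOM and 1.55, 4.05 and 4.26 CPM in mutant EOM. The trunk values were 8.84, 9.46 and 9.94 CPM in WT and 1.82, 0.404 and 2.19 CPM in the mutant, and the pooled log2 fold change was -2.58 (SE 0.36, adjusted p 0.00204, edgeR). The change was of like size in both muscles, -2.50 in EOM and -2.66 in trunk. Also among the 15 largest falls chosen in the same way were acot15, a second acyl-CoA thioesterase gene, by a pooled log2 fold change of -3.95, and acbd4, an acyl-CoA binding protein gene, of -3.76 (adjusted p 0.00963 and 0.000919, edgeR). In taco1, which encodes a mitochondrial protein needed to translate a cytochrome oxidase subunit, the value was -2.96, and in rxfp2a, a relaxin family peptide receptor gene, it was -2.17 (adjusted p 0.00459 and 0.00323). The gene si:dkey-22o12.7 had -2.15 (adjusted p 0.0139).

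The neuropeptide gene uts2b (urotensin 2) fell by 3.35 on the log2 scale, with trunk libraries at 4.995 to 12.5 CPM in WT and 0.736 to 1.49 CPM in the mutant. CNGA3, listed by the symbol of the human gene for a channel subunit of cone photoreceptors, fell by 3.03, and matn3a, a matrilin gene of cartilage, fell by 4.02. For matn3a the WT trunk libraries were themselves far apart, at 9.90, 8.85 and 0.219 CPM, and its call was lost in 8 of the 12 fits without 1 library. Of 31 tested neuron and glia genes none passed in edgeR or DESeq2 (9 had an unadjusted p under 0.05 in edgeR, against 12% of all genes tested). Their summed level overlapped in trunk, at 584 to 953 CPM in WT and 627 to 1046 CPM in the mutant. That sum does not describe the typical member, as the list's median log2 fold change was -1.01 in trunk and 0.086 in EOM. The WT trunk libraries differed among themselves, with sums of 953, 732 and 584 CPM in libraries 1, 2 and 3. Whether the trunk median rests on 1 WT library was not tested, so it is not read as a fall of neuronal transcripts in mutant trunk. The pooled median of the neuron and glia genes was -0.26, and it was -0.378 to 0.0923 without 1 library, so its sign was not stable. Of 22 tested photoreceptor and retina genes none passed in edgeR or DESeq2 (2 had an unadjusted p under 0.05 in edgeR), 4 were positive, and their sum was 48.4 to 99.0 CPM in WT EOM and 57.1 to 61.4 CPM in mutant EOM. Of 29 fat, cartilage, bone and tendon genes prg4a alone passed, against 1.22% of all genes. The sum of this list was 431 to 496 CPM in WT trunk and 347 to 764 CPM in mutant trunk. Its largest member in trunk was fabp4a, at 229 to 294 CPM in WT trunk. The member col2a1a had 5.07, 2.13 and 0.196 CPM in WT trunk and 0.275, 0.095 and 0.375 CPM in mutant trunk. For cnmd these were 0.984, 0.460 and 0.069 CPM in WT and 0.034, 0 and 0.052 CPM in the mutant. By contrast, matn4 had 34.4 to 51.6 CPM in WT trunk and 54.4 to 60.7 CPM in mutant trunk. The part of such cells in these results was not tested.

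Immune genes made up most of the list members past the threshold. As 1 set, 123 tested genes of the phagocyte, antigen presentation, complement and lysosome lists held 15 past the threshold, 14 higher and 1 lower, or 12.2% against the 1.22% of all genes. In this set 95 of the 123 were positive and the median was 0.49. Some of the 15 genes past the threshold are close copies or lie close together in gene order, so they need not count as separate. The interferon-stimulated list was left out of the set. Its median was -0.025, and the 1 gene of it that passed, tlr18, was lower in the mutant (-2.90 pooled, -4.54 in EOM and -1.26 in trunk). In the phagocyte and leukocyte list 3 of 40 passed (7.5%), all higher, and 33 were positive, with a median pooled log2 fold change of 0.57. The gene irf8, a transcription factor of macrophage development, had 5.56, 6.37 and 4.89 CPM in WT EOM and 25.2, 13.1 and 8.28 CPM in mutant EOM. In trunk irf8 had 3.22, 3.42 and 2.69 CPM in WT and 20.5, 10.2 and 10.5 CPM in the mutant, without overlap, and its pooled log2 fold change was 1.81 (SE 0.29, adjusted p 0.00581, edgeR). The gene spi1a, a paralog of the myeloid transcription factor gene spi1b, was at 1.09 (adjusted p 0.0217, edgeR). The next gene of the list by p, fcer1gl, had 1.52 (adjusted p 0.051).

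In the antigen presentation list 5 of 26 passed (19.2%), 4 higher and 1 lower, with a median of 0.49. The invariant chain gene cd74b, whose product escorts MHC class II molecules, had 148.8, 107.2 and 77.3 CPM in WT EOM and 430, 285 and 137 CPM in mutant EOM. Trunk levels were 38.4, 38.5 and 31.7 CPM in WT and 119, 141 and 68.0 CPM in the mutant. The lowest mutant EOM library was below the highest WT EOM library, while the trunk groups did not overlap, and the pooled log2 fold change was 1.47 (SE 0.30, adjusted p 0.0233, edgeR). The class II gene mhc2daa, which stands outside the list and was chosen after its values were seen, had 1.55 (adjusted p 0.0247). The immunoproteasome genes psmb9a, psmb10 and psmb13a had 1.67, 1.56 and 1.60 (adjusted p 0.0407, 0.0455 and 0.0488), and the groups of psmb9a and psmb10 overlapped in EOM.

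The gene that fell in this list was mhc1uba, a classical MHC class I gene. It had 126, 125 and 58.6 CPM in WT EOM and 17.5, 2.59 and 14.2 CPM in mutant EOM. In trunk it had 84.9, 135 and 119 CPM in WT and 27.8, 14.2 and 15.02 CPM in the mutant. Its groups were well apart in both muscles, with a pooled log2 fold change of -2.87 (SE 0.40, adjusted p 0.00207, edgeR). A further class I gene, mhc1zda, chosen after its values were seen, fell by 1.72 (adjusted p 0.00963). In the order of genes in the files mhc1uba lies beside psmb8a, followed by psmb13a, psmb12 and psmb9a. Of these, psmb13a and psmb9a rose past the threshold. The pooled log2 fold changes of psmb8a and psmb12 were 1.28 and 1.52 (adjusted p 0.206 and 0.0709, edgeR). Zebrafish MHC class I genes are known to differ in number and sequence between fish.

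The complement list held 2 of 17 past the threshold (11.8%), and 15 of the 17 were positive, with a median of 0.63. Both genes that passed, c3b.1 and c3b.2, encode complement component 3 and were hardly read: c3b.1 was at 0.0115 to 0.0904 CPM in the WT libraries and at 0.0238 to 0.842 CPM in the mutant ones. Their pooled log2 fold changes were 3.47 and 4.21 (adjusted p 0.0157 and 0.0215, edgeR). In the list of granulins, cathepsins and lysosome genes 5 of 40 passed (12.5%), all higher, and the median was 0.32. These were the granulin genes grna, grna.1 and grna.2 and the cathepsin S genes ctss2.1 and ctss2.2. For grna, which encodes a secreted growth and lysosomal factor, the WT libraries of both muscles ranged from 10.1 to 12.1 CPM, the mutant EOM libraries were at 22.4, 46.4 and 35.6 CPM and the mutant trunk libraries at 19.6, 16.9 and 22.7 CPM. No mutant library reached down to a WT one, and the pooled log2 fold change was 1.24 (SE 0.21, adjusted p 0.00963, edgeR). For ctss2.1 the value was 1.496 and for ctss2.2 it was 1.23 (adjusted p 0.0122 and 0.0195). The granulin genes and the cathepsin S genes are sets of close copies, between which reads could be split.

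**Figure D3:**
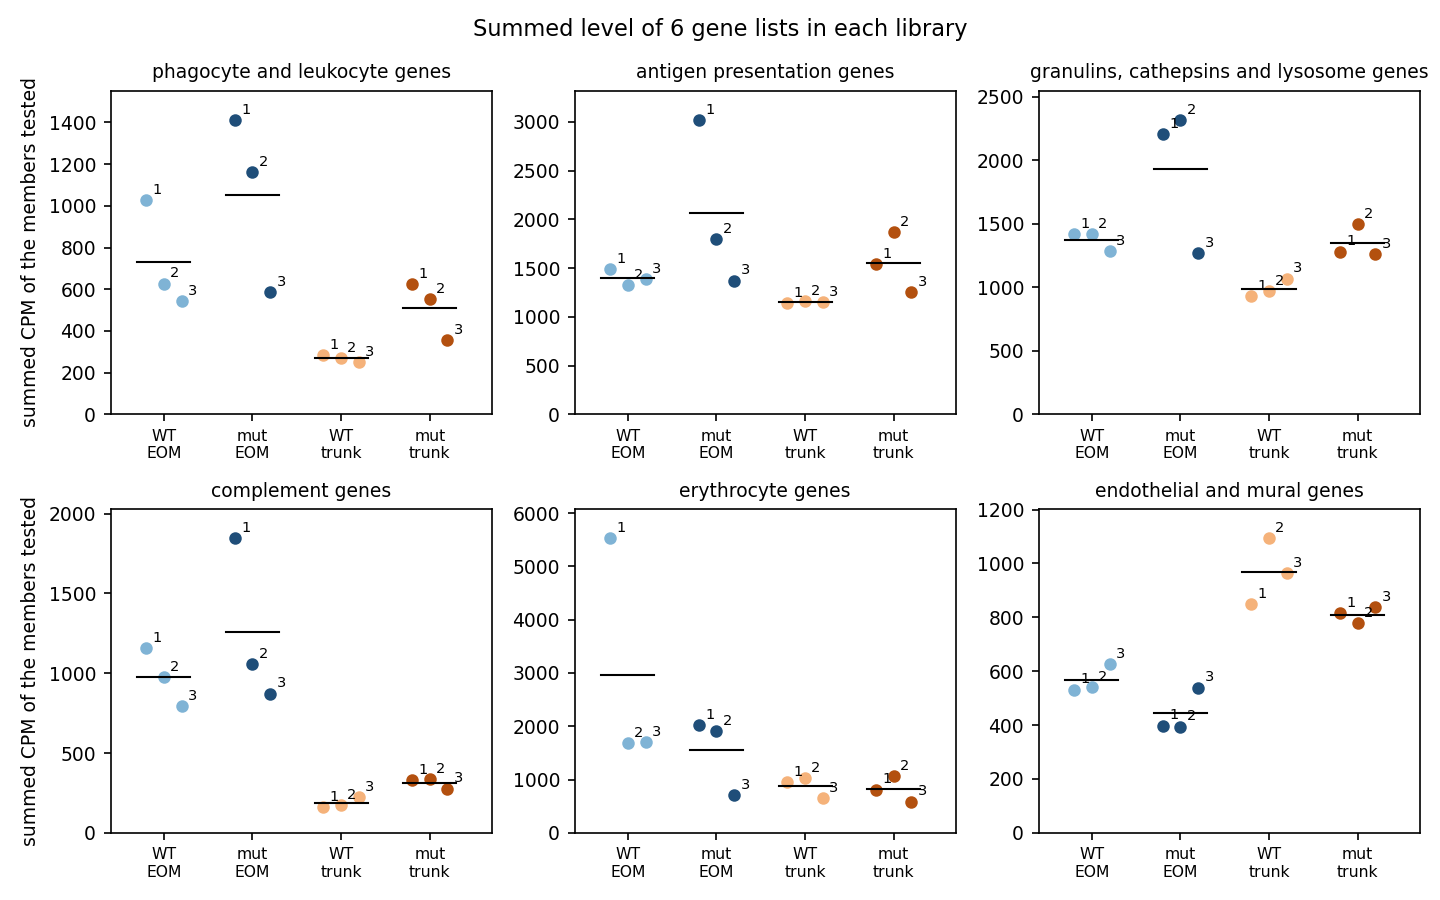
Summed CPM of the tested members of 6 gene lists in each library, with the replicate number beside each point and the mean of 3 libraries as a line. In trunk the mutant libraries lie above the WT ones for the 4 immune and lysosome lists, whereas in EOM mutant library 3 lies within or below the WT range for the phagocyte, antigen presentation, complement and lysosome lists.

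The summed levels differed between libraries of 1 group. The phagocyte list summed to 1028, 626 and 543 CPM in WT EOM and 1412, 1163 and 585 CPM in mutant EOM, which overlap. In trunk it summed to 284, 268 and 251 CPM in WT and 624, 553 and 356 CPM in the mutant, which do not. In both genotypes EOM library 1 was the highest and library 3 the lowest. The counts of members past the threshold moved with the libraries used: without mutant EOM library 3 they were 7, 7, 5 and 9 in the phagocyte, antigen presentation, complement and lysosome lists, and without WT EOM library 2 they were 2, 1, 1 and 2. In these 2 fits 2.05% and 0.501% of all genes passed. Without WT trunk library 3 no complement gene passed, where 0.577% of all genes did. With the EOM number as a block the 4 counts were 11, 8, 5 and 6, where 1.91% of all genes passed. With library totals alone they were 1, 2, 0 and 1, where 0.504% of all genes passed. The medians of the 4 lists were then 0.26, 0.22, 0.35 and 0.00, where that of all genes was -0.29.

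The medians of the blood and vessel lists were negative. Of 18 tested erythrocyte genes 16 were negative, with a median of -0.64, and 1 passed, against 1.22% of all genes. This gene, hbaa2, an adult alpha globin gene, fell by 1.87 in log2 (SE 0.39, adjusted p 0.0254, edgeR). Its level was 128, 35.6 and 50.1 CPM in WT EOM and 25.2, 19.7 and 10.7 CPM in mutant EOM, and 41.4, 36.5 and 10.1 CPM in WT trunk and 10.9, 6.87 and 7.57 CPM in mutant trunk. The trunk groups overlapped. The summed erythrocyte level was 1681 to 5526 CPM in WT EOM and 709 to 2017 CPM in mutant EOM, and 651 to 1019 CPM in WT trunk and 586 to 1068 CPM in mutant trunk. An unadjusted p under 0.05 in edgeR, which 12% of all genes had, was found in 8 of 27 endothelial and mural genes, all lower. None of the 27 passed in edgeR, 1 passed in DESeq2 (against 3.61% of all genes) and 1 with the EOM number as a block (against 1.91%). Their sum was 531 to 626 CPM in WT EOM and 394 to 539 CPM in mutant EOM, which overlap, and 850.3 to 1093 CPM in WT trunk and 778 to 837 CPM in mutant trunk, which do not. Whether blood content bears on the immune genes was not tested.

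**Figure D4:**
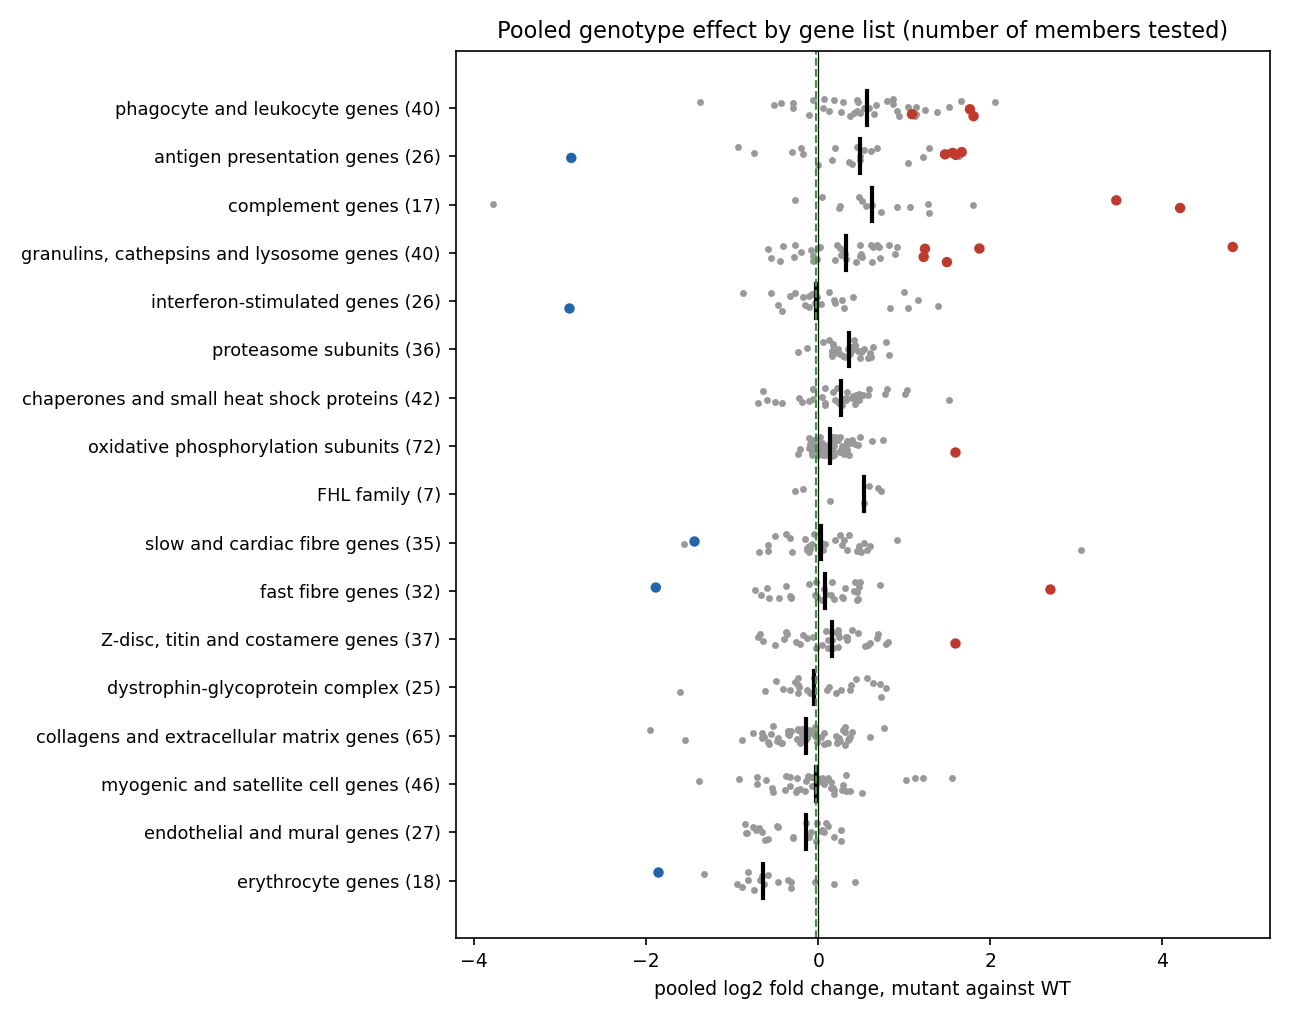
Pooled log2 fold change of each tested member (points) of 17 gene lists, with the list median as a black bar, the median of all genes as a dashed line and the number of members tested in brackets; red and blue points passed the threshold. Coloured points are most frequent in the antigen presentation, lysosome and complement lists, and the proteasome and chaperone lists lie mostly to the right of 0 with no coloured point.

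Against the 1.22% of all genes, 2 of 32 genes passed in the fast fibre list (6.25%), 1 of 35 in the slow and cardiac fibre list (2.86%), 1 of 37 in the Z-disc, titin and costamere list (2.7%) and 1 of 38 in the excitation-contraction list (2.63%). None of 25 genes of the dystrophin-glycoprotein complex, 29 neuromuscular junction genes or 46 myogenic and satellite cell genes passed in edgeR, where 7, 3 and 6 had an unadjusted p under 0.05. DESeq2 called 0, 1 and 4 of them, and edgeR with the EOM number as a block called 0, 1 and 2. Of all genes tested, 12% had an unadjusted p under 0.05 in edgeR. DESeq2 called 3.61% of all genes and the EOM block 1.91%. The slow myosin heavy chain gene smyhc1 had 131, 67.7 and 128 CPM in WT EOM and 53.3, 30.9 and 69.8 CPM in mutant EOM. In trunk the values were 444, 596 and 459 CPM in WT and 114, 90.8 and 227 CPM in the mutant. The EOM groups overlapped and the trunk groups did not, and the pooled log2 fold change was -1.44 (SE 0.30, adjusted p 0.029, edgeR).

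Of the fast myosin heavy chain genes myha fell and myhb rose. The level of myha was 1710, 1736 and 1141 CPM in WT EOM and 777, 530 and 748 CPM in mutant EOM, and 772, 255 and 362 CPM in WT trunk and 55.4, 149 and 22.2 CPM in mutant trunk. The groups did not overlap in either muscle, and the pooled log2 fold change was -1.89 (SE 0.42, adjusted p 0.0402, edgeR). For myhb the pooled log2 fold change of 2.70 (adjusted p 0.00163) came from trunk: it was 5.02 there, from 1.02, 1.11 and 1.14 CPM in WT to 19.1, 47.2 and 40.23 CPM in the mutant, and 0.38 in EOM, where the groups overlapped. The difference between the muscles had an adjusted p of 0.065. These genes belong to a family of near-identical copies, so the split of reads between them is uncertain.

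The gene ankrd1a encodes a stretch- and stress-responsive protein that binds titin. It had 1.296 to 1.57 CPM in WT EOM and 2.68, 0.80 and 3.18 CPM in mutant EOM, which overlap. The trunk values were 17.2, 10.0 and 5.13 CPM in WT and 82.6, 31.8 and 78.9 CPM in the mutant, and its pooled log2 fold change was 1.59 (SE 0.37, adjusted p 0.0477, edgeR). With the EOM number as a block its adjusted p was 0.0567, and its call was lost in 9 of the 12 fits without 1 library. In the excitation-contraction list the gene that passed was kcnj13, an inward rectifier potassium channel gene, at a low level of 0.023 to 0.366 CPM in WT and 0.428 to 3.95 CPM in the mutant (pooled log2 fold change 4.01, adjusted p 0.00452). The calcium buffer gene of the sarcoplasmic reticulum, hrc, had -1.29 with an adjusted p of 0.0525.

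Protein quality control and energy metabolism were described by lists in which single genes seldom passed. None of 36 proteasome subunits passed in edgeR or DESeq2 (3 had an unadjusted p under 0.05 in edgeR), and 34 were positive, with a median of 0.36, and their summed levels overlapped between genotypes in EOM (1118 to 2078 CPM in WT, 1005 to 2565 CPM in the mutant) and not in trunk (1381 to 1566 against 1638 to 2617 CPM). None of 42 chaperone and small heat shock genes passed in edgeR, where 7 had an unadjusted p under 0.05, with 31 positive and a median of 0.27, while DESeq2 called 2 and the EOM block 2; the small heat shock genes hspb1 and hspb9 had 1.03 and 1.52 (adjusted p 0.119 and 0.109). Among all genes tested, 12% had an unadjusted p under 0.05 in edgeR, DESeq2 called 3.61% and the EOM block 1.91%. With library totals alone both medians were near 0, at 0.01 for the proteasome and -0.01 for the chaperones. Of 72 nuclear oxidative phosphorylation subunits 62 were positive with a median of 0.14, beside -0.17 in EOM and 0.43 in trunk. In edgeR 1 of the 72 passed, against 1.22% of all genes. The pooled median was -0.00586 to 0.326 without 1 library, -0.226 with library totals alone and -0.141 without mutant trunk libraries 1 and 2. That gene was cox6b1, a cytochrome oxidase subunit gene, at 38.28, 29.03 and 26 CPM in WT EOM and 94.1, 76.5 and 30.1 CPM in mutant EOM, which overlap. In trunk it was at 12.7, 13.6 and 10.2 CPM in WT and 39.7, 68.4 and 45.9 CPM in the mutant, a pooled log2 fold change of 1.59 (SE 0.28, adjusted p 0.0102, edgeR).

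In edgeR no gene passed among 58 genes of the citrate cycle and fatty acid oxidation, 43 of glycolysis, glycogen and phosphocreatine, 40 of autophagy and atrophy, 65 of collagens and extracellular matrix (median -0.14) and 54 of the cell cycle, whose other medians lay between -0.13 and 0.21. In edgeR 3, 6, 6, 6 and 3 of them had an unadjusted p under 0.05, and DESeq2 called 0, 2, 2, 1 and 0. With the EOM number as a block 1 glycolysis gene passed. Over all genes tested the shares were 12% for the unadjusted p, 3.61% for DESeq2 and 1.91% for the EOM block. The interferon-stimulated list, with a median of -0.03, held 1 of 26 past the threshold, where 1.22% of all genes passed in edgeR. That gene, the fish toll-like receptor gene tlr18, fell by 2.90 (adjusted p 0.0455, edgeR). Its log2 fold change was -4.54 in EOM and -1.26 in trunk, where its unadjusted p was 0.205 in edgeR. The trunk level was low, at 0.217 to 0.265 CPM in WT and 0 to 0.166 CPM in the mutant. The unadjusted interaction p of tlr18 was 0.0235 (adjusted p 0.934, edgeR). With the EOM number as a block the adjusted p of tlr18 was 0.0707, and its call was lost in 10 of the 12 fits without 1 library. The same share of all genes, 1.22%, stands beside the counts of the clock, p53 and immediate early lists. Of 42 circadian clock genes 1 passed, tmtops2a. Of 28 p53 targets phlda3, whose product restrains AKT signalling, rose by 1.59 (adjusted p 0.0117) alone. Its log2 fold change was 2.33 in trunk and 0.84 in EOM, where the groups overlapped. The unadjusted p of that difference was 0.0169 (adjusted p 0.934, edgeR). Of 32 immediate early genes, which respond to handling as well as to disease, atf3 rose by 1.51 (adjusted p 0.0211), 27 were positive and the median was 0.34, and DESeq2 called 5. The pooled value of atf3 averaged 0.37 in EOM, where the groups overlapped (WT at 3.17, 2.60 and 4.42 CPM, mutant at 6.05, 2.275 and 4.795 CPM), and 2.65 in trunk, and the unadjusted p of the difference was 0.00151 (adjusted p 0.934). Its call was lost in 7 of the 12 fits without 1 library. The summed level of the immediate early genes was 694 to 932 CPM in mutant EOM against 746 to 901 CPM in WT EOM, and 937.5 to 1248 CPM in mutant trunk against 761 to 935 CPM in WT trunk. In all, 24 of the 244 genes belonged to 1 of the muscle and response lists and 220 to none of those. That count leaves out the clock, immediate early, Hox and cell type lists. Their members tmtops2a, atf3, hbaa2 and prg4a, which passed as well, are among the 220.

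The most abundant genes past the threshold, those with a mean of at least 50 CPM, were chosen after their values were seen, and 6 rose and 6 fell. Beside desma, myha, smyhc1, mhc1uba, cd74b and mhc2daa they included gstk4, a mitochondrial and peroxisomal glutathione transferase gene. It had 104.5, 66.8 and 63.1 CPM in WT EOM and 14.9, 12.6 and 15.5 CPM in mutant EOM. In trunk it had 484, 433 and 501 CPM in WT and 345, 124 and 318 CPM in the mutant. The groups were apart in both muscles, with a pooled log2 fold change of -1.65 (SE 0.28, adjusted p 0.00824, edgeR). F13A1 (ENSDARG00000045453.8), listed by the symbol of the human coagulation factor XIII gene, a transglutaminase that macrophages make as well, had 170, 186 and 97.8 CPM in WT EOM and 307, 396 and 360 CPM in mutant EOM. Trunk libraries held 213, 132 and 185 CPM in WT and 832.5, 667 and 319 CPM in the mutant, a pooled log2 fold change of 1.504 (SE 0.29, adjusted p 0.0187, edgeR). The gene synpo2la, which encodes an actin-binding protein of the Z-disc, fell by 0.87 (adjusted p 0.0487), from a mean of 27.4 to 15.7 CPM in EOM and of 118.2 to 61.5 CPM in trunk, without overlap. Its call was lost in 11 of the 12 fits without 1 library. Those of myha, smyhc1, cd74b, mhc2daa and F13A1 were lost in 10, 9, 8, 7 and 4 of these fits. The calls of desma, mhc1uba and gstk4 held in every one. The other abundant genes were mlf1 at 1.19, TNNI2 (listed by the human symbol of fast troponin I) at 1.47 and c6.2, a complement gene outside the list, at 0.89. For TNNI2 and c6.2 the log2 fold changes were 2.535 and 1.546 in trunk. In EOM they were 0.40 and 0.23, and the groups overlapped. The unadjusted interaction p was 0.00595 and 0.00553 (adjusted p 0.934 for both, edgeR). The calls of mlf1, TNNI2 and c6.2 were lost in 9, 10 and 11 of the 12 fits without 1 library.

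The neighbourhood of the 2 mutated genes was read separately, since alleles carried along with a mutation would lie there. Of 68 tested genes within 50 positions of desmb in gene order 3 passed the threshold (4.41%, against 1.22% of all genes), namely tmtops2a 19 positions away, ackr3b, an atypical chemokine receptor gene, 25 positions away, and dytn (dystrotelin) 21 positions away on the other side. For ackr3b the level was 10.5, 11.3 and 9.14 CPM in WT EOM and 59.3, 37.7 and 29.1 CPM in mutant EOM, and 2.95, 5.01 and 5.81 CPM in WT trunk and 10.0, 13.7 and 10.3 CPM in mutant trunk. It did not overlap in either muscle (pooled log2 fold change 1.67, SE 0.25, adjusted p 0.00284, edgeR). For dytn the value was -3.63 (adjusted p 0.0115). Around desma none of 70 tested genes passed in edgeR. An unadjusted p under 0.05 was found in 13 genes around desma (18.6%) and in 13 around desmb (19.1%), where 12% of all genes tested had one. The gene fhl2b lies 13 positions from desmb and fhl2a 24 positions from desma, with unadjusted p of 0.00311 and 0.0434. What part linkage has in these values was not tested.

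**Figure D5:**
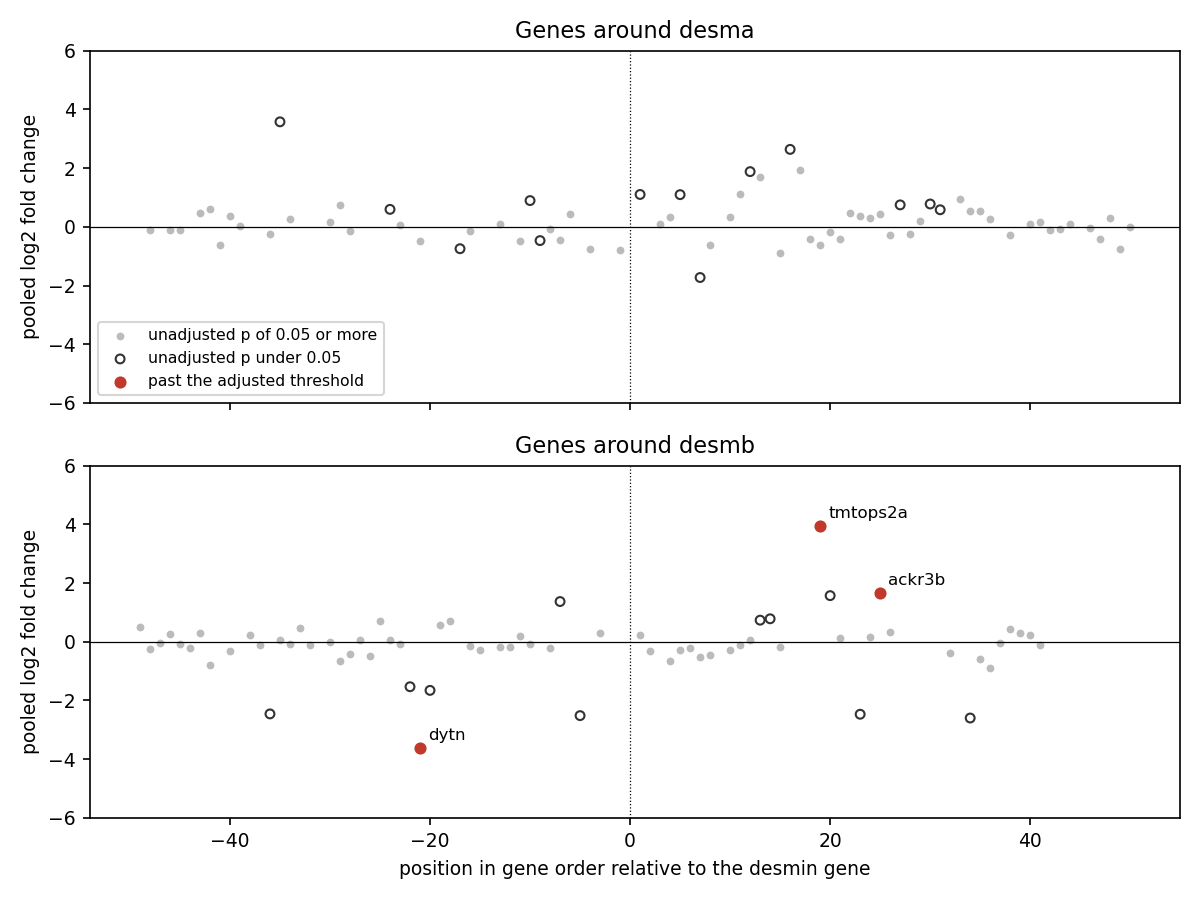
Pooled log2 fold change of the tested genes within 50 positions of desma (upper panel) and desmb (lower panel) in gene order; open circles have an unadjusted p under 0.05 and red points passed the adjusted threshold. The 3 red points, tmtops2a, ackr3b and dytn, lie 19 to 25 positions from desmb.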

How the data were processed

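For each library the authors deposited raw counts by gene in the layout of STAR, with the tools STAR and DESeq2 and the genome build GRCz11 named in the submitters' processing notes; versions and the annotation release are not given in the sources used here. Per the labels, libraries were stranded and poly-A selected, and the gene-strand column was used, which held 96.43 to 97.26% of stranded reads. The layout's 4 summary lines stayed out of library sizes (multimapping reads were 8.28 to 12.5% of reads), and close gene copies lose or split reads. Symbols came from the supplied name table, which covers 29201 of 32520 genes; 10978 of the 12593 in capitals were resolved to zebrafish symbols by their letters and by neighbouring genes in the RefSeq annotation of GRCz12tu, used for names only.

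Counts were fitted with edgeR 4.0.16 in R 4.3.3 (TMM, filterByExpr with minimum count 10 and total 15, 4 group means over 12 libraries, robust quasi-likelihood F test, adjusted p threshold 0.05). Standard errors were taken from the size of the log2 fold change divided by the root of its F statistic. CPM values are per library, with n = 3 per group, and depth sets counting error only. A floor of 3 reads in each library stood for 0 in fold bounds, and such bounds cover counting error only. The model was tested on simulated data. Alternatives used DESeq2 1.42.0, limma 3.58.1 and other scalings, filters, blocks and left-out libraries. Same-numbered libraries share only a number in the labels, and the main fit took no libraries as pairs. In EOM the deviations of same-numbered WT and mutant libraries correlated at 0.288, 0.246 and 0.552. In trunk they correlated at -0.0954, 0.0566 and -0.00918. The number served as a block in alternative fits only. The labels do not pair the 2 muscles. Same-numbered EOM and trunk libraries correlated at 0.0161, -0.0756 and -0.0799 in WT and at -0.129, 0.141 and 0.402 in the mutant, and were not taken as pairs. Across groups, the highest value between differently numbered libraries was 0.323, for WT EOM library 1 and mutant trunk library 2. No 2 libraries held identical counts.

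The always-named genes were the desmin genes, fhl2a and fhl2b. The rule then took, from genes past the threshold that had a name, averaged 1 CPM or more and did not overlap in each tissue, the 15 largest rises and 15 largest falls, genes at no more than 3 reads in all libraries of 1 genotype, and up to 4 members past the threshold with the smallest p per list. Other named genes were chosen after their values were seen. Not every gene with next to no reads in 1 genotype is named, and a list member past the threshold is not reported here. The comparison and the lists were chosen with earlier results of these data known. A knock-down at 2 time points is mentioned in the series text; the labels, followed here, give a double mutant at 5 months.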

Additional observations from a re-analysis of the deposited data

Results flagged for a closer look

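The genotype effect differed between the muscles in 2 of the 244 genes past the threshold of the pooled contrast, by the interaction term of the same model. For prg4a, the gene of lubricin, a lubricant of joints and tendons, the trunk effect minus the EOM effect was 4.40 on the log2 scale (edgeR, adjusted p 0.00308). Its level was 11.6, 13.3 and 9.32 CPM in WT EOM and 0.928, 1.46 and 1.17 CPM in mutant EOM, and 0.58, 0.65 and 0.679 CPM in WT trunk and 1.512, 1.497 and 1.19 CPM in mutant trunk, so that it fell in EOM and was higher in mutant trunk. For myo5b, an unconventional myosin of vesicle transport, the difference was 4.71 (adjusted p 0.0103). It was at 1.89, 1.64 and 1.31 CPM in WT EOM and 0.177, 0.0314 and 0.144 CPM in mutant EOM, and at 7.401, 6.28 and 10.3 CPM in WT trunk and 13.6, 17.0 and 16.9 CPM in mutant trunk. The pooled values of these genes, -1.07 and -1.37, average effects of opposite sign and describe neither muscle.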

How the results depend on the processing

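The share of tested genes past the threshold, 1.22% (244 genes) as reported, corresponded to 208 to 288 genes with DESeq2 size factors in edgeR, no filter, limma-voom (of whose 242 genes 44.2% were higher), the additive model, non-robust dispersions, unstranded counts and the number as a replicate block across tissues (288) or within tissue (253). It was 1.13% (164 genes) with a stricter filter, 0.504% with library totals alone and 1.91% (382) with the replicate block in EOM only. It was 0.464% without mutant trunk libraries 1 and 2, 3.61% (723) with DESeq2 itself, and 0.501% to 2.05% without 1 library each. The genes past the threshold with a mean of 1 CPM or more (147) were 0.733% of all 20041 genes tested, whatever their level. DESeq2 called all 244. Of the 244, 53 passed in every one of the 26 settings in which they were tested. A setting that did not test a gene, as the stricter filter may, was not counted for it. The count of genes whose effect differed between tissues, 2 as reported, was 0 with library totals, 13 with DESeq2, 1 with limma-voom, 1 with unstranded counts and 1 to 3 without 1 library. The genes called near desma and desmb, 3 as reported, were 12 with DESeq2, 6 with limma-voom, 6 with the replicate block in EOM only, 5 without a filter, 5 without mutant trunk libraries 1 and 2, and 3 to 5 without 1 library. The cause of these moves was not tested, apart from the fewer libraries or genes that some of these fits use.

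With library totals alone, which shifted all genes down, list medians were -0.17 for intermediate filament genes, -0.11 for the Z-disc list, -0.27 for the dystrophin-glycoprotein complex, 0.26 for phagocytes, 0.35 for complement, 0.0011 for granulins and lysosome, -0.42 for autophagy, -0.0093 for chaperones, -0.31 for the citrate cycle and fatty acid list, -0.29 for slow fibres, -0.11 for p53 targets, 0.072 for immediate early genes, -0.035 for pigment cells, -0.98 for erythrocytes, -0.41 for endothelium, -0.55 for fat, cartilage, bone and tendon and -0.19 for posterior Hox genes. The fat and cartilage median, -0.27 as reported, was -0.089 with the stricter filter, -0.11 with DESeq2 and -0.33 to -0.11 without 1 library. The Hox median, 0.04 as reported, was 0.19 with the stricter filter, 0.20 with the additive model, 0.20 with unstranded counts, -0.16 without both EOM libraries numbered 3 and -0.22 to 0.19 without 1 library. The endothelial median, -0.15 as reported, was -0.41 with the replicate block within tissue and -0.46 to -0.13 without 1 library. Without both EOM libraries numbered 3 the lysosome median was 0.51 and the autophagy median 0.0045, and without mutant trunk libraries 1 and 2 the neuron median was -0.71. The signs that turned were those of fhl3b (-0.12, library totals), fhl1b (0.073 without WT EOM library 1, and -0.36 to 0.073 without 1 library each) and fhl3a (0.0048 without mutant EOM library 2, and -0.65 to 0.0048 without 1 library each).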
